A study of Homo sapiens with 6 samples.

Results

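The hubs described here are 1289 short stretches of chromatin in the rhabdoid tumour cell line G401, each of which made listed contacts with at least 35 other regions in both H3K27ac HiChIP libraries taken 3 days after SMARCB1 was switched on. HiChIP joins DNA ends that lie close together in the nucleus and pulls down those held at a chosen protein or histone mark. The regions at the ends of a contact are called anchors, a joined pair of anchors is a loop, and the strength of a loop is its number of paired-end tags (PETs). The anchors that a given anchor is joined to are its partners. Hubs were chosen by their measured partner number in day 3 H3K27ac: a hub is an anchor under 20000 bp wide that was listed in both of those libraries and had 35 or more distinct partners in each. Of the 17319 day 3 H3K27ac anchors listed in both libraries, 7.44% were hubs, and of the 16596 that were under 20000 bp wide, 7.77% were. The remaining 15307 anchors of that width are called the other narrow anchors. The whole series held 51970 distinct anchors.

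G401 is an established human line without SMARCB1, which is 1 of the core proteins of SWI/SNF, a complex that remodels chromatin. The study used a derivative carrying an inducible SMARCB1 and compared contacts before and after its return. Day 0 libraries came from cells labelled SMARCB1 -/- without doxycycline and were made with an antibody to H3K27ac. Day 3 libraries came from cells labelled SMARCB1 +/+ after 3 days of doxycycline at 1 μg/ml, and were made with an antibody either to H3K27ac or to ARID1A, a subunit that belongs to only some forms of SWI/SNF. Each of the 3 groups had 2 libraries, all of the 1 cell line. No group received doxycycline without SMARCB1, so SMARCB1, doxycycline and time in culture cannot be told apart. The labels do not say that replicates were separate cultures, so every p-value reflects the spread of these libraries alone, and that spread may be technical.

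H3K27ac is an acetyl group on histone H3 found at active promoters and enhancers. Promoters and enhancers that lie near each other on a chromosome can meet many neighbours, and in contact maps such meeting points appear as anchors with many partners. SWI/SNF moves nucleosomes at enhancers, and loss of SMARCB1, the defining lesion of rhabdoid tumours, lowers the amount of SWI/SNF found there.

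The libraries held 301703 and 253502 PETs at day 0, 929128 and 982141 in day 3 H3K27ac, and 435210 and 467487 in ARID1A. They listed 8594 and 8558, 17363 and 17377, and 26283 and 26350 anchors. Between 98.4% and 99.7% of the anchors of the shorter list recurred with the same bounds in the replicate, so a single anchor list seems to have served each group. A hub with no anchor in another group was therefore not measured there, and the missing value is not a count of 0. The number of partners listed for an anchor can grow with the depth of the library, and the libraries differ in depth. Group medians of partner number are therefore given also after all libraries were thinned at random to the 253502 PETs of the smallest. Partner numbers of single hubs, bands and ranked lists, counts of hubs that reached 35 partners and correlations are as deposited and are not matched for depth.

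The rule used the day 3 H3K27ac libraries, so the values from them describe the hubs and test nothing. The partner numbers of the hubs ran from 35 to 83 in replicate 1 and from 35 to 78 in replicate 2, with a median of 42 in each. The other narrow anchors had a median of 15 partners in each library. After thinning, the hub medians were 24 and 23 and those of the other narrow anchors 7 and 7. A further 542 narrow anchors reached 35 partners in 1 of the libraries only, and 305 of the 723 wider anchors (42.2%) reached it in both. At the partner threshold, the hub chr1:2135945-2147492 had 38 and 35 partners, chr1:7456923-7468836 had 35 and 41, and chr1:7526995-7540830 had 41 and 35. Just outside it, chr1:24967587-24975606 had 34 and 35, chr1:25059381-25066128 had 34 and 34, and chr1:25556546-25560913 had 36 and 34. The widest hubs, at 15q24.1, 11q12.3 and 1p36.23, measured 19886, 19665 and 19609 bp, and the first anchors with enough partners beyond the width limit, at 10q22.2, 15q22.2 and 17q21.1, measured 20021, 20051 and 20063 bp. All coordinates are of build hg19, printed as deposited.

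**Figure D1:**
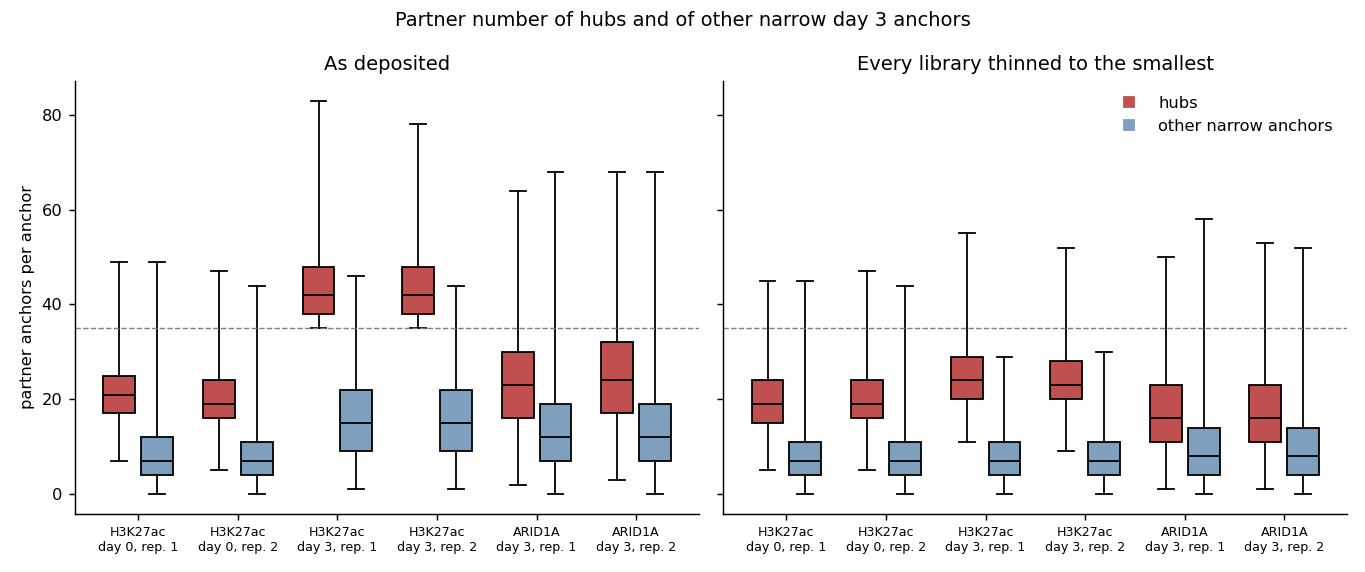
Partner number per anchor (vertical axis, number of partner anchors) in each of the 6 libraries for hubs and other narrow anchors, as deposited on the left and after thinning on the right; boxes span the quartiles, lines mark medians, whiskers reach the lowest and highest anchor, and the dashed line marks 35 partners. Hub medians were 21 and 19 at day 0, 42 and 42 in day 3 H3K27ac, and 23 and 24 for ARID1A as deposited, and 19, 19, 24, 23, 16 and 16 after thinning.

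Hubs were wider than the other narrow anchors, with a median width of 9214 bp (quartiles 6344 and 12842) against 5407 bp (4315 and 7278). Hubs held a median of 232 and 245 PETs in the day 3 H3K27ac libraries, against 46 and 48 for the other narrow anchors. Their contacts were spread over more loops. The strongest loop held a median of 18.6% and 19.0% of the PETs of a hub, against 27.3% and 27.8% at the other narrow anchors. Loops resting on a single PET made up a median of 37.0% and 36.7% of the loops of a hub, against 46.2% and 45.5%. Many partners of a hub thus rest on little evidence each. When only partners joined by 2 or more PETs were counted, 166 anchors met the rule. The partner lists of a hub in the replicate libraries shared a median of 60.3% of their union, and those of the other narrow anchors 50%. Hub loops also reached farther, with a median span of 521 and 513 kb against 358 and 356 kb. All listed loops joined anchors within 2 Mb of each other, and the longest loop of a hub spanned a median of 1884 and 1875 kb.

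The number of possible partners was larger around hubs. A median of 78 day 3 anchors lay within 2 Mb of a hub (quartiles 65 and 89), against 36 around the other narrow anchors (quartiles 23 and 52). Hubs also met a larger share of the anchors in reach, with partners numbering a median of 58.3% of them against 42.1%. When narrow anchors were divided into 10 classes of nearly equal size by the number of anchors within 2 Mb, none of the lowest 4 classes held a hub. The next classes held 1, 15, 74, 151 and 341 hubs, and the top class, with 76 to 115 anchors within 2 Mb, held 707 hubs among 1597 narrow anchors (44.3%). Across all 16596 narrow anchors the day 3 partner number followed the number of anchors within 2 Mb with a Spearman correlation of 0.78, and its own PETs with 0.85. Within the 1289 hubs these correlations were 0.44 and 0.46. These are descriptions across anchors that share loops, libraries and neighbourhoods, and anchors are not replicates.

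Some hubs had few anchors within 500 kb or within 2 Mb. The hub chr6:29594941-29602553 at 6p22.1 had 1 other anchor within 500 kb but 72 within 2 Mb, between the hub quartiles of 65 and 89. It had 39 and 42 partners, joined by 89 and 94 PETs over a median span of 1038 kb. At 12p13.31, the hub chr12:7032574-7048767 had the fewest anchors within 2 Mb of all hubs, 36, and 35 and 36 partners, which is nearly every anchor in reach. Both were picked for naming after their values were seen. The narrowest hub, chr19:47582234-47584655 at 19q13.32, measured 2421 bp and had 37 and 36 partners.

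Hubs lay on 21 chromosomes. Chromosome 1 held 172 hubs and chromosome 19 held 171, but on chromosome 19 they made up 22.9% of the narrow anchors and on chromosome 1 they made up 9.98%. Chromosomes 17, 11 and 6 followed with 123, 107 and 104 hubs. Chromosome 4 held a single hub among 668 narrow anchors, at 4p14, chr4:40045196-40063047, with 38 and 37 partners. None of the 292 narrow anchors of chromosome 13 or the 263 of chromosome X was a hub. By cytoband, hubs fell in 135 bands of the 862 in the hg19 band table. The 51 bands with 10 or more hubs held 1022 of them (79.3%). The fullest were 19q13.32 with 51 hubs among 82 narrow anchors, 11q13.1 with 49 among 72, 19p13.3 with 45 among 134, 22q13.1 with 42 among 78, 1p36.11 with 39 among 105, and 9q34.11 with 38 among 73. The nearest other hub lay a median of 36.3 kb away from centre to centre. For 1025 hubs (79.5%) it lay within 100 kb, and 17 hubs had none within 2 Mb.

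**Figure D2:**
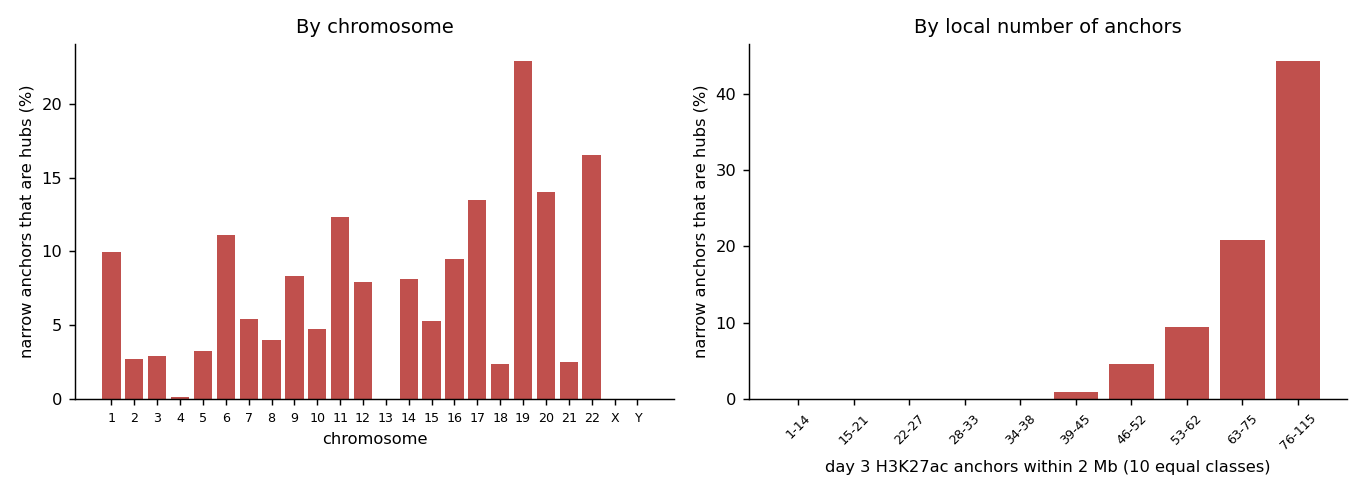
Share of narrow day 3 H3K27ac anchors that were hubs (vertical axes, percent), by chromosome on the left and by the number of day 3 anchors within 2 Mb, in 10 classes of nearly equal size, on the right. Chromosome 19 had the highest share, 22.9%, and the share rose from 0 in the lowest 4 classes to 44.3% in the top class.

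Many partners of hubs were themselves hubs. A hub had a median of 18 such partners in each day 3 library, against 0 for the other narrow anchors. The 1289 hubs were joined by 9586 loops listed in both day 3 libraries and fell into 83 connected groups, of which 17 were single hubs. The 39 groups of 10 or more hubs held 1144 of them. The largest group ran from 19q13.2 to 19q13.33 over 10.4 Mb, chr19:39887618-50325639, with 109 hubs and 1128 loops between them. The second ran from 6p22.2 to 6p21.2 over 11.0 Mb, chr6:26116474-37143566, with 88 hubs and 797 loops. The third covered 6.17 Mb from 11q12.3 to 11q13.2, chr11:61727146-67897448, with 81 hubs and 861 loops. No loop spans more than 2 Mb, so these groups are chains, and in the 3 largest 19.2%, 20.8% and 26.6% of hub pairs were joined directly. Shorter groups were closer to complete. At 14q24.1, 15 hubs within 1.33 Mb had 94.3% of their pairs joined, and at 8p11.23 to 8p11.22, 16 hubs within 1.23 Mb had 93.3%.

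The 10 hubs with the most partners, ranked by the smaller of the day 3 libraries, lay in 8 bands. At 6p22.1, the region that carries the large cluster of replication-dependent histone genes, the hub chr6:27848582-27865860 had 82 and 78 partners, 1169 and 1191 PETs, and the partner lists shared 86.0% of their union. Its neighbour chr6:27829394-27838225 had 69 and 70 partners. Whether either hub overlaps a histone gene was not determined, since no gene annotation of build hg19 was used here. At 22q13.1, chr22:39913851-39933327 had 83 and 77 partners, of which the strongest held 11.0% of its PETs. At 19q13.32, chr19:47549635-47568678 had 73 and 73 partners and chr19:47607526-47618072 had 68 and 77. On the short arm of chromosome 1, chr1:8932679-8942907 at 1p36.23 had 73 and 74 partners and chr1:27181976-27193223 at 1p36.11 had 72 and 71. The others were chr19:2452674-2466171 at 19p13.3 with 72 and 70, chr1:154940366-154952722 at 1q21.3 with 69 and 70, and chr11:63681191-63689097 at 11q13.1 with 71 and 69. In the 6p22.1 pair the strongest loop held 38.3% and 36.9% of the PETs, while in the other 8 hubs it held between 11.0% and 14.7%.

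The next question was whether the same stretches were anchors in the libraries the rule did not use. At day 0, 1005 hubs (78.0%, 95% Wilson interval 75.6% to 80.1%) overlapped an anchor by at least 1 bp, against 37.4% of the other narrow anchors. For ARID1A, 1167 hubs did (90.5%, 88.8% to 92.0%), against 76.1%. These intervals cover counting error only. Requiring the overlap to cover at least 50% of the hub lowered the shares to 59.9% and 76.4% for hubs and to 31.8% and 68.4% for the other narrow anchors. Anchors were called per group, so these shares have no spread over libraries and were not tested. Hubs are also wider than the other narrow anchors, so a chance overlap of 1 bp is more likely for them, and the part of width in this difference was not tested.

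Of the 1289 hubs, 922 (71.5%) overlapped an anchor in both other groups, 245 (19.0%) in ARID1A only, 83 (6.44%) at day 0 only, and 39 (3.03%) in neither. The same shares among the other narrow anchors were 30.3%, 45.8%, 7.15% and 16.8%. Hubs with anchors in both groups were the widest, with a median of 9992 bp, and those with neither the narrowest, with 5818 bp. Of the 245 hubs with an ARID1A anchor only, 14 lay at 9q34.11 and 13 each at 19q13.32, 1p36.11 and 2p21. At 2p21, 9 of 23 hubs had a day 0 anchor and 22 had an ARID1A anchor. The 83 hubs with a day 0 anchor only included 6 at 6p22.1 and 5 each at 16p11.2 and 16p13.3. Among the 39 with neither, the most connected was chr22:38664331-38672663 at 22q13.1, with 52 and 51 partners in day 3 H3K27ac.

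Where a hub overlapped a day 0 anchor, that anchor had a median of 21 and 19 partners in the day 0 libraries (1005 hubs), against 7 and 7 at the other narrow anchors (5727 anchors). For ARID1A the medians were 23 and 24 (1167 hubs) against 12 and 12 (11648 anchors). After thinning they were 19 and 19 against 7 and 7 at day 0, and 16 and 16 against 8 and 8 for ARID1A. The hubs thus had more partners than the other narrow anchors in all 4 libraries that the rule did not use, at both depths. The number of anchors in reach, larger around hubs, was not matched, nor was the width of the overlapping anchors. The widest of these had a median of 6716 bp at hubs against 5335 bp at day 0, and 10320 against 7139 bp for ARID1A. The part of either was not tested. In the 4 libraries, 29 and 23 hubs reached 35 partners at day 0 (2.89% and 2.29%), and 196 and 235 did for ARID1A (16.8% and 20.1%). Over all anchors of any width in these libraries, 0.745% and 0.573% did at day 0, and 2.12% and 2.58% for ARID1A. The units differ: a wide anchor that covers several hubs counts once per hub in the hub shares and once in the shares over all anchors. Across the 1005 hubs, day 3 partner number correlated with day 0 partner number at a Spearman coefficient of 0.50, and across 1167 hubs with the ARID1A partner number at 0.15. Over all narrow anchors with an overlap these were 0.86 (6732 anchors) and 0.59 (12815 anchors). The rule cut the day 3 partner number of hubs at 35, and a narrowed range can lower a correlation. The difference between these coefficients is therefore not read as a trait of hubs.

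The same picture was drawn from the other side, by taking the most connected 7.77% of narrow anchors in each other group. At day 0 these were 633 of 8153 anchors, with 20 or more partners in both libraries, and 402 of them (63.5%) overlapped a hub, against 13.0% of all 8153. They covered 31.0% of the hubs. For ARID1A they were 1917 of 24683 anchors, with 21 or more partners, and 366 (19.1%) overlapped a hub, against 4.33% of all 24683. They covered 28.8% of the hubs.

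At ARID1A the most connected hubs were not those of day 3 H3K27ac. A trio at 19q13.33, chr19:49115896-49124399, chr19:49131057-49145004 and chr19:49147304-49151235, lay inside a single ARID1A anchor 47210 bp wide with 62 and 67 partners. Those 3 hubs had separate H3K27ac anchors at both times, with 62 and 58, 65 and 66, and 51 and 51 partners at day 3. At 5q23.2, chr5:124033569-124051786 had 60 and 64 ARID1A partners, 13 and 12 at day 0, and 35 and 45 in day 3 H3K27ac. Its ARID1A anchor measured 63306 bp and its day 0 anchor 5229 bp. The hub chr15:67086069-67097730 at 15q22.31 had 59 and 68 ARID1A partners through an anchor of 115206 bp. At day 0, the highest counts belonged to the 6p22.1 hub chr6:27848582-27865860, with 47 and 47, and to a 1q21.3 anchor of 28045 bp that covers the hubs chr1:154925986-154931893 and chr1:154940366-154952722, with 49 and 44.

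The comparison of ARID1A at day 3 with H3K27ac at day 0 is the only contrast that uses none of the libraries that chose the hubs. The choice still bears on it, since hubs were chosen for many H3K27ac partners and 1 of its groups is H3K27ac. Over all narrow anchors, day 3 H3K27ac partner number correlated at 0.86 with that of day 0 and at 0.59 with that of ARID1A. Lower values for ARID1A at hubs could reflect the choice in part, which was not tested. The groups of this contrast differ in antibody, SMARCB1, doxycycline and time together, which cannot be told apart. In the 922 hubs with anchors in both groups, the median partner number was 21 and 19 at day 0 and 23 and 24 for ARID1A, or 20.0 ± 1.41 against 23.5 ± 0.707 (SD, n = 2 libraries each), a difference of 3.50 (two-sided exact permutation p = 0.333, the smallest that 2 against 2 libraries allow). After thinning, the medians were 19 and 19 against 17 and 17, so the direction turned (difference -2.00, exact permutation p = 0.333). It also turned when partners needed 2 or more PETs (-1.0, exact permutation p = 0.667). The 4633 other narrow anchors with both had 8 and 7 partners at day 0 and 12 and 12 for ARID1A, a difference of 4.50, and 2.00 after thinning (exact permutation p = 0.333 each). For 433 hubs (47.0%) both ARID1A libraries listed more partners than both day 0 libraries, and for 268 (29.1%) both listed fewer. Over all 5555 narrow anchors with both, these shares were 58.5% and 15.2%. After thinning they were 28.1% and 47.7% of hubs, and 40.6% and 27.4% of all.

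Listed loops were shorter for ARID1A at hubs and at the other narrow anchors. Spans were not matched for depth, and ARID1A listed more anchors than day 0. The part of either in the spans was not tested. In the same 922 hubs the median loop span was 412 and 402 kb at day 0 and 249 and 251 kb for ARID1A, a difference of -157 kb (407 ± 7.27 against 250 ± 1.19, SD, n = 2 each; exact permutation p = 0.333, the smallest possible). The other narrow anchors had 322 and 308 kb against 210 and 219 kb, a difference of -101 kb (exact permutation p = 0.333). Hub loops held 32.7% and 33.7% of the PETs between merged anchors at day 0 and 16.2% and 16.7% for ARID1A. ARID1A had more anchors outside hubs, and among loops whose ends were called in both groups the shares were 36.0% and 37.1% against 31.0% and 31.8%, a difference of -5.09 percentage points (exact permutation p = 0.333). In day 3 H3K27ac, hub loops held 31.8% and 31.7% of the PETs.

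PETs per anchor were then tested between ARID1A at day 3 and H3K27ac at day 0. Overlapping anchors of the 6 libraries were merged, and the merged anchors called in both groups were compared on the PETs of loops between such anchors. The 1289 hubs fell into 1214 merged anchors, of which 885 were called in both groups and 881, holding 954 hubs, passed the minimum of 10 PETs in 2 libraries. The other 335 hubs were not tested. Of the 881, 216 (24.5%) were higher for ARID1A and 382 (43.4%) were lower at an adjusted p under 0.05 (edgeR quasi-likelihood test, Benjamini-Hochberg over 4595 merged anchors). Over all 4595, 62.4% were called, 31.1% higher and 31.3% lower. The median log2 fold was -0.28 at hubs and -0.05 over all. Without day 0 replicate 1, which leaves 1 day 0 library, the median log2 fold was -0.40 at 792 hub anchors and -0.01 over all 3634. Fewer hub anchors were then called higher, and fewer of all anchors as well. All folds are relative to the PETs between anchors called in both groups. Against the total PETs of each library the median of all anchors moved by -1.85, and 20 hub anchors were then higher and 823 lower, against 4.29% higher and 83.9% lower over all.

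**Figure D3:**
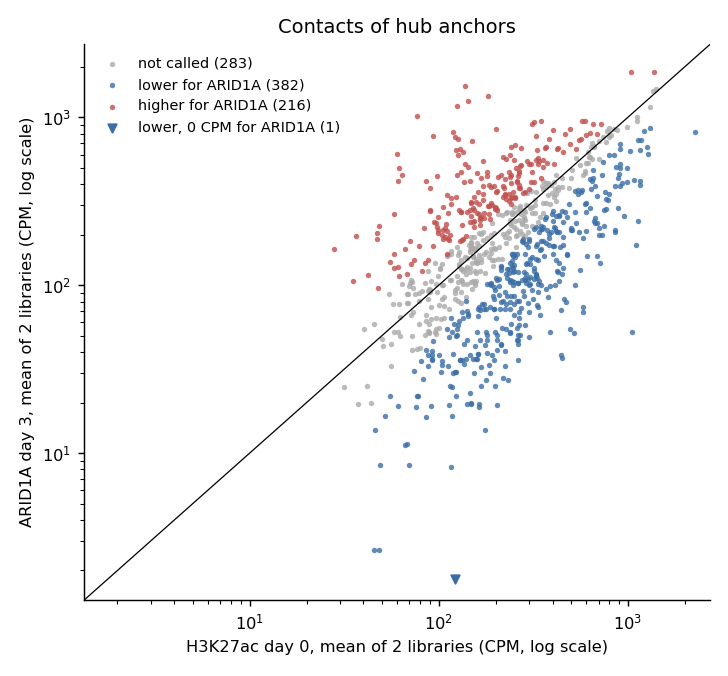
Contacts of the 881 tested hub anchors at day 0 (horizontal axis) and for ARID1A (vertical axis), in CPM on log scales, each the mean of 2 libraries; CPM are PETs scaled to a total of 1000000 PETs between anchors called in both groups, colours mark calls by edgeR, and the triangle marks an anchor with no ARID1A PETs, drawn at the lower edge. More anchors lie below the line of equal contacts and are called lower (382) than above it and called higher (216).

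The width of the called anchor moved with these folds. Hub anchors called higher were a median of 2.47 times as wide for ARID1A as at day 0, and 214 of the 216 were wider for ARID1A. Those called lower had a median width ratio of 0.998, and those not called 1.56. Across the 881 hub anchors the fold and the width ratio had a Spearman correlation of 0.76, and across all 4595 of 0.71. Among the 236 hub anchors whose widths differed by at most 25%, 28 were higher and 92 lower, with a median log2 fold of -0.42. Over all 1422 anchors of such width, 25.2% were higher and 20.6% lower. The part of width in the calls of the remaining hub anchors was not tested. Merging could also join neighbouring anchors. Among the 579 hub anchors with a single anchor per group, 108 were higher and 283 lower, against 25.7% and 33.8% of all 3058 such anchors.

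Calls are given by cytoband as a description. Of the 34 bands with 10 or more tested hub anchors, 22 had more lower than higher calls, 8 had more higher, and 4 had as many of each. Most of these bands also had more lower than higher calls among their anchors that hold no hub, so this split is not read as a trait of hubs. On chromosome 11, 3 of 73 hub anchors were higher and 45 lower. Its anchors without a hub were not counted as a whole. At 11q13.2, 2 of 14 such anchors were higher and 9 lower, and at 11p15.4 2 of 12 and 6. At 11q13.1, none of 29 hub anchors was higher and 24 were lower, with a median log2 fold of -1.80. The hubs there had a median of 26 and 25 partners at day 0 and 15 and 18 for ARID1A. At 17q25.3 none of 11 was higher and 10 were lower (median -1.71), at 1q22 none of 12 and 10 (-1.60), and at 16p11.2 none of 15 and 13 (-1.48). Among the tested anchors of these bands that hold no hub, none of 8 was higher and 5 were lower at 11q13.1, none of 13 and 11 at 17q25.3, none of 8 and 7 at 1q22, and 6 of 26 and 13 at 16p11.2. The hub anchors of these bands had nearly the same width in both groups, with median ratios of 1.13 at 11q13.1, 1.06 at 17q25.3, 1.13 at 1q22 and 1.01 at 16p11.2. Other bands went the opposite way. At 1p36.11, 12 of 22 were higher and 6 lower (median 0.51), at 1p36.22 6 of 14 were higher and none lower (0.53), and at 20q13.13 6 of 12 were higher and 1 lower (0.58). Anchors without a hub had 10 of 19 higher and 2 lower at 1p36.11, 5 of 15 and 1 at 1p36.22, and 4 of 8 and none at 20q13.13. The ARID1A anchors at the hubs of these bands were wider, with median ratios of 2.12, 1.65 and 1.75. The difference between bands, and between anchors with and without a hub in a band, was not tested.

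The strongest calls are named by a rule: the 6 per direction with the smallest p whose libraries did not overlap between groups. The most significant higher anchor, chr17:41767192-41817327 at 17q21.31, held 4 hubs. It had 135 and 139 CPM at day 0 and 1439 and 1631 CPM for ARID1A, a log2 fold of 3.58 ± 0.13 (SE; edgeR adjusted p = 5.77e-18). It was covered by anchors totalling 4449 bp at day 0, 40531 bp in day 3 H3K27ac and 47866 bp for ARID1A, and 3 of its 4 hubs overlapped no day 0 anchor. Next to it, chr17:41818552-41847801 held 2 hubs and had 181 and 185 CPM against 1289 and 1407 CPM (2.98 ± 0.13). These neighbours were joined by 11 and 5 PETs at day 0 and by 125 and 160 for ARID1A, and that loop was the most significant of both.

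A like pair lay at 20q13.13. The merged anchor chr20:49146648-49188852 with 2 hubs had 148 and 139 CPM at day 0 and 1289 and 1221 CPM for ARID1A (log2 fold 3.21 ± 0.14), and chr20:49107692-49139945 with 1 hub had 132 and 117 CPM against 1191 and 1141 CPM (3.31 ± 0.15). The loop between them had 10 and 8 PETs at day 0 and 108 and 112 for ARID1A. At 14q24.1, chr14:69535191-69570823 had 79.6 and 74.5 CPM against 1075 and 965 CPM (3.81 ± 0.17), the largest fold among the 6. At 20q11.22, chr20:34283593-34313349 had 98.9 and 87.4 CPM against 826 and 720 CPM (3.13 ± 0.18). All 6 were called wider for ARID1A than at day 0. All 6 were also higher against library totals, by log2 folds of 1.12 to 1.96.

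The most significant lower anchor was the 6p22.1 hub with the most day 3 partners. It had 1000 and 1095 CPM at day 0 and 46.2 and 58.6 CPM for ARID1A, from 364 and 338 against 8 and 11 PETs, a log2 fold of -4.20 ± 0.20 (SE; edgeR adjusted p = 7.98e-16). Its partner number was 47 and 47 at day 0 and 6 and 16 for ARID1A, where its anchor measured 4498 bp against 10498 bp at day 0. All 8 of its tested loops were lower. The most significant of them, to chr6:27771845-27811500 65.1 kb away, had 181 and 180 PETs at day 0 and 2 and 1 for ARID1A, a ratio of shares of 66.2 (exact 95% interval 22.5 to 322, counting error only). At 6p22.2, chr6:26241679-26257550 had 1123 and 1098 CPM against 144 and 203 CPM (-2.57 ± 0.15). Not all of 6p22.1 went this way: of 16 hub anchors tested there, 8 were higher and 2 lower. Of 8 tested anchors there without a hub, 3 were higher and 3 lower.

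The remaining 4 lower anchors lay in 4 bands. At 9q34.11, chr9:132173252-132190265 had 1104 and 1163 CPM at day 0 and 220 and 261 CPM for ARID1A (log2 fold -2.13 ± 0.14). At 5q31.2, chr5:139059815-139094539 had 2252 and 2306 CPM against 844 and 794 CPM (-1.38 ± 0.09), with anchors of 32669 and 30666 bp, so its width hardly differed. At 17p13.1, chr17:7375887-7393160 had 621 and 538 CPM against 80.9 and 58.6 CPM (-2.97 ± 0.23). At 11q13.1, chr11:65636373-65642631 had 497 and 544 CPM against 40.5 and 64.0 CPM (-3.20 ± 0.24). All 6 lower anchors were also lower against library totals. All 6 were called narrower for ARID1A than at day 0, the 5q31.2 anchor by the least.

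**Figure D4:**
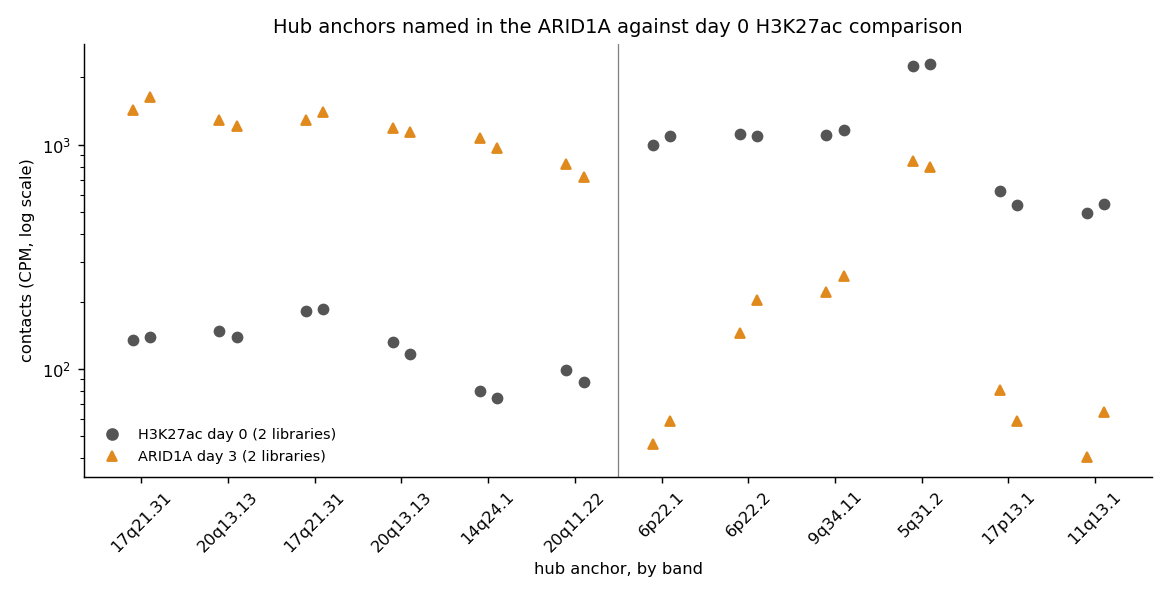
Contacts (vertical axis, CPM on a log scale) of the 6 higher and 6 lower hub anchors named by the rule, labelled by band, with a circle for each of the 2 day 0 libraries and a triangle for each of the 2 ARID1A libraries. The naming rule asks for groups that do not overlap, so the gaps between them are a description; the widest gap is at 6p22.1, with 1000 and 1095 CPM against 46.2 and 58.6 CPM.

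The partner maps of the 6p22.1 hub and of the 20q13.13 hub chr20:49117831-49136389 give these folds loop by loop. At 6p22.1 the hub had 55 partners in either day 0 library, 86 in day 3 H3K27ac and 19 for ARID1A. Partners within 250 kb held 60.5% of its PETs at day 0, 67.2% in day 3 H3K27ac and 26.9% of only 26 PETs for ARID1A. At 20q13.13 there were 29, 66 and 61 partners, and those within 250 kb held 58.3%, 65.4% and 71.5% of 127, 874 and 555 PETs. The day 3 numbers belong to the rule and to deeper libraries and are given as a description.

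**Figure D5:**
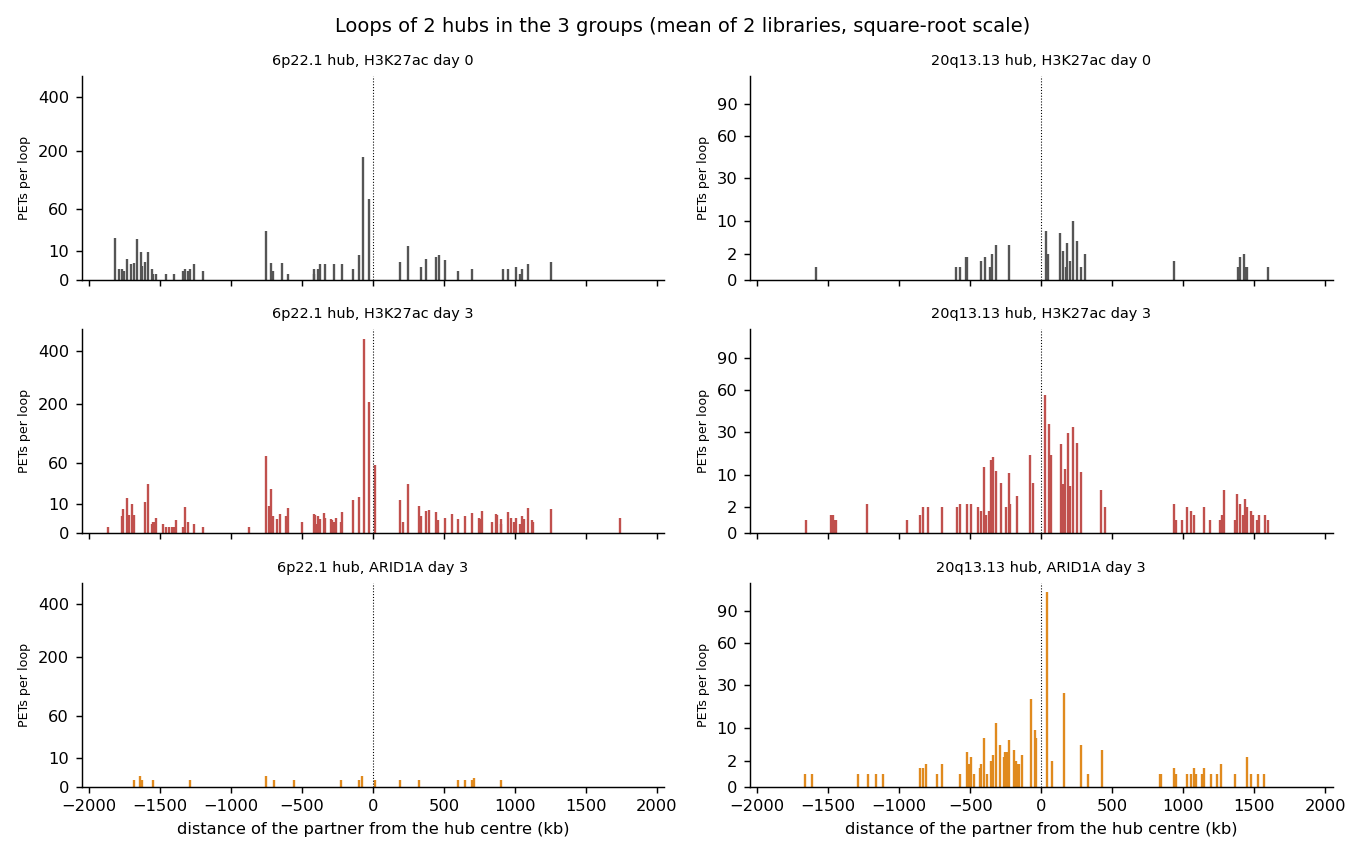
Loops of the 6p22.1 hub (left) and the 20q13.13 hub (right) in the 3 groups, with the distance of the partner from the hub centre on the horizontal axis (kb) and the PETs of each loop on the vertical axis (mean of 2 libraries, square-root scale, raw counts). The 6p22.1 hub has 55 partners at day 0 and 19 for ARID1A, and the 20q13.13 hub has 29 and 61.

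Of the 10 hubs with the most day 3 partners, 9 could be tested in this contrast, and they did not move one way. Besides the 6p22.1 hub, the anchors at 22q13.1 (log2 fold -1.30 ± 0.14), 1q21.3 (-1.77 ± 0.16), 11q13.1 (-2.76 ± 0.26) and 1p36.23 (-0.80 ± 0.21) were lower. That at 11q13.1, for example, had 357 and 415 CPM at day 0 and 46.2 and 58.6 CPM for ARID1A. The anchors of chr19:47549635-47568678 at 19q13.32 (1.03 ± 0.16) and of the hub at 19p13.3 (0.87 ± 0.13) were higher. The 19p13.3 hub itself overlapped no day 0 anchor, and its merged anchor was compared through a day 0 anchor beside it. The second 19q13.32 hub (612 and 619 CPM against 532 and 538 CPM) and the 1p36.11 hub (310 and 340 CPM against 364 and 352 CPM) were not called, with edgeR adjusted p of 0.473 and 0.212. The second 6p22.1 hub had no ARID1A anchor and was not tested. The hubs with the most ARID1A partners did not move one way either. The merged anchor of the 19q13.33 trio was lower for ARID1A (-0.31 ± 0.13), with 824 and 767 CPM against 509 and 688 CPM. That at 5q23.2 was higher (0.93 ± 0.09), and that at 15q22.31 was not called (0.04 ± 0.11).

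Single loops of hubs were tested in the same contrast. Of 3091 tested hub loops, 465 (15.0%) were higher for ARID1A and 799 (25.8%) lower (edgeR, Benjamini-Hochberg over 8158 loops), and the median log2 fold was -0.54. Over all 8158 loops, 41.9% were called, 20.2% higher and 21.7% lower, with a median of -0.22. Each left-out library, which leaves 1 library in a group, lowered the number of called hub loops, and that of all called loops as well. The median log2 fold of hub loops was -0.20 and -0.17 without day 0 replicate 1 and 2. It was -0.51 and -0.56 without ARID1A replicate 1 and 2. Over all loops these medians were 0.02, -0.01, -0.24 and -0.29. With loops of a deposited value of 0.01 or less the order turned, with 371 hub loops higher and 348 lower, where 53.6% of all such loops were called, 32.6% higher and 20.9% lower. Against library totals 95 were higher and 2273 lower, against 4.72% and 68.3%. DESeq2 called 231 hub loops higher and 233 lower, against 10.7% higher and 6.44% lower over all loops. It gave no adjusted p to 863 of the 3091 hub loops and 2056 of all 8158, so these could not be called. Where both ends differed in width by at most 25%, 1 of 237 hub loops was higher and 27 were lower, against 7.34% and 8.02% of all 885 such loops. Of the 30356 hub loops listed in both day 3 H3K27ac libraries, 47.3% had both ends called at day 0, and 81.4% of these were listed there. For ARID1A, 75.6% had both ends called, and 58.8% of these were listed. Loops of the other narrow anchors were listed in 82.9% and 68.2% of such cases.

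The contrasts with day 3 H3K27ac used the libraries that chose the hubs, so their counts describe the hubs and nothing is read from them. They also share libraries with each other and with the contrast above. Between H3K27ac at day 3 and day 0, 966 hub anchors were tested; 279 were higher at day 3 and 210 lower (edgeR adjusted p under 0.05), with 39.5% of all 6251 anchors called (20.7% higher, 18.8% lower). The median log2 fold was 0.03. Against library totals the direction turned, with 75 higher and 651 lower, and 6.29% and 55.0% of all anchors. Between ARID1A and H3K27ac at day 3, 137 of 1094 hub anchors were higher for ARID1A and 752 lower, with 64.0% of all 11052 called (31.5% higher, 32.5% lower), and the median was -0.80. Without day 3 H3K27ac replicate 1 or 2, fewer hub anchors were called higher, and fewer of all anchors as well. The median log2 fold of the 1052 hub anchors was -0.96 in each case, against 0.01 and 0.00 over all anchors. For the merged 6p22.1 anchor chr6:27847213-27866332, the log2 folds were 0.04 ± 0.07 between day 3 and day 0 and -4.90 ± 0.18 between ARID1A and H3K27ac at day 3. For the 17q21.31 anchor with 4 hubs they were 3.23 ± 0.11 and -0.26 ± 0.07, and for the 20q11.22 anchor 0.32 ± 0.19 and 2.43 ± 0.11. Against library totals the median of all anchors moved by -0.61 and -0.65 in these contrasts, so positive folds smaller than that can change sign with the scaling.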

How the data were processed

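HiChIP was read as paired reads of 150 bp, per the labels' protocols. Per the submitters' processing notes, HiC-Pro and Bowtie2 were used with build hg19, with no versions given; the loop caller is not given in the sources used here. The deposited files list, for each pair of anchors, a raw whole-number count of PETs. They also hold a deposited value from 0 to 1 per loop, taken as a p-value or q-value and used only as a threshold of 0.01 in an alternative. The files do not state whether coordinates count from 0 or 1.

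Partners were counted on anchors as written. For a hub, the overlapping anchor with most partners was used in each other library. For the tests, anchors of all files overlapping by 1 bp or more were merged into 30001 anchors (a median of 12770 bp for those holding hubs), and 68 of these held more than 1 hub. Loops unlisted between called anchors entered as 0. Counts were tested with edgeR 4.0.16 (quasi-likelihood, TMM; 10 PETs per anchor or 4 per loop in at least 2 libraries) in R 4.3.3, on the 4 libraries compared, with DESeq2 1.42.0 as an alternative. Python 3.11.15, pandas 2.3.3, scipy 1.17.1 and networkx 3.6.1 did the rest; bands are from circlize 0.4.16. Alternatives were the scaling, filter, tool, replicate block, anchor width, overlap, thresholds, and leaving out each library.

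Named hubs are the 10 with most day 3 partners, those nearest each threshold, the 5 with most partners in each other group, the 6 strongest calls per direction with their strongest loop, and the 3 largest hub groups; others named were picked after their values were seen. Members and lists were chosen with earlier results of these data known. Sequence features and gene lists of hubs were not analysed here.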

Additional observations from a re-analysis of the deposited data

How the results depend on the processing

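The number of hubs followed the rule: 2148 with 30 or more partners, 712 with 40 or more, 738 under 10000 bp, 166 with partners of 2 or more PETs, 65 after thinning to the smallest library and 14 with loops of a deposited value of 0.01 or less. Overlap of 50% of the hub lowered the shares with a day 0 and an ARID1A anchor to 59.9% and 76.4%. The partner difference between ARID1A and day 0 (3.50) turned to -2.00 after thinning and -1.0 with 2 or more PETs, and lay between 2.50 and 4.50 without 1 library. For ARID1A against day 0, the 598 called hub anchors became 120 with matched widths (fewer anchors tested) and 350 with the value threshold, and 495 to 538 without 1 library. Library totals moved the higher share of these calls from 36.1% to 2.37%, matched widths to 23.3%. Over all called anchors that share was 49.8%, 4.86% with library totals and 55.1% with matched widths. The 1264 called hub loops became 2368 with library totals, 464 with DESeq2, 28 with matched widths, 719 with the value threshold, 594 after thinning (chosen after seeing the data) and 561 to 696 without 1 library; the lowest was without day 0 replicate 1, and leaving out day 0 replicate 2 gave 576, ARID1A replicate 1 696 and ARID1A replicate 2 667. Higher calls made up 36.8% of the called hub loops, 4.01% with library totals, 49.8% with DESeq2, 3.57% with matched widths and 51.6% with the value threshold. Over all called loops the same shares were 48.1%, 6.47%, 62.5%, 47.8% and 60.9%. For ARID1A against H3K27ac at day 3, 889 calls became 326 with matched widths and 798 to 859 without 1 library. For H3K27ac at day 3 against day 0, 489 became 268 with DESeq2, 85 with matched widths and 365 to 412 without 1 library, and the share higher fell from 57.1% to 10.3% with library totals. Over all called anchors of that contrast the share higher fell from 52.4% to 10.3%. Except where fewer anchors or libraries entered, the cause of these moves was not tested. With the replicate number as a block the counts were 602 anchors and 1056 loops for ARID1A against day 0. They were 883 anchors for ARID1A against H3K27ac at day 3 and 471 for day 3 against day 0. Same-numbered libraries deviated together with correlations of 0.00 to 0.02. With 2 libraries per group, these correlations cannot settle whether the numbers pair the libraries. All 12 anchors named by their calls kept direction and call under each alternative run on them; with matched widths that was 1 of the 12. Depth limits partner numbers: day 3 hub medians of 42 and 42 became 24 and 23 after thinning.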
